A study of Mus musculus with 4 samples.

Results

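The regions described here are stretches of open chromatin inside genes that were detected in control mice and in neither library from mice in which Otp had been targeted. The tissue was the hypothalamic paraventricular nucleus (PVH), and the assay was ATAC-seq, where a transposase cuts accessible DNA and tags it for sequencing. All mice were 12 weeks old and carried Otp fl/fl and Ai14, that is, loxP-flanked Otp alleles and a Cre-dependent red reporter. The control group (2 libraries) had received AAV-GFP, a viral vector for green fluorescent protein, and the other group (2 libraries) AAV-Cre, a vector for the recombinase that cuts out the flanked DNA. The tissue was dissected 4 weeks after injection. The labels do not name the serotype or promoter of the vectors, the number of infected cells, or whether each library came from a separate animal, so differences between libraries of a group may be technical. No step that selects infected cells is named, so in this bulk tissue fewer cells of a type and less open chromatin per cell cannot be told apart.

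Peaks of the 4 libraries on chromosomes 1 to 19 that shared at least 1 bp were joined, which gave 65969 regions. A region was kept when it held peaks of both controls and of no AAV-Cre library, when it lay wholly inside a protein-coding gene, and when it was more than 1 kb from every end of a protein-coding gene. These conditions left 3483 regions, called control-only intragenic regions below. They were 36% of the 9685 intragenic regions that both controls held (control-held regions). Of the rest, 3685 had a peak in all 4 libraries (the shared regions), 902 were also held by AAV-Cre replicate 1 and not replicate 2, and 1615 by replicate 2 and not replicate 1. Of 18265 control-held regions elsewhere on these chromosomes, 22.3% were control-only, and of all 27950 it was 27%. In the other direction, 393 of the 4615 intragenic regions held by both AAV-Cre libraries (8.52%) had no peak in either control. Because the presence of peaks chose the members, their absence after AAV-Cre is a description and was not tested. With 2 libraries against 2, the smallest p that an exact permutation test allows is 0.333.

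Open chromatin far from a promoter is usually found at enhancers, which transcription factors bind and which raise transcription of a nearby gene. Introns of long genes hold many of them, and their use differs between cell types more than that of promoters. Otp is a homeodomain transcription factor of hypothalamic neuroendocrine neurons, and the comparison asks which open regions are no longer detected after Otp has been targeted. Genes used mainly in neurons, such as those for adhesion molecules, ion channels and synaptic scaffolds, are among the longest in the mouse genome.

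The lists were of unequal length, with 57682 and 34100 peaks in AAV-GFP replicates 1 and 2 and 23384 and 26612 in AAV-Cre replicates 1 and 2. Sequencing depth is unknown. Among 7 PVH marker genes, 5 and 4 had a peak within 1 kb of a gene end in the AAV-GFP libraries and 2 and 3 in the AAV-Cre libraries. Avp, which encodes vasopressin, had none in any library, and Oxt, which encodes oxytocin, had such a peak in AAV-Cre replicate 1 only. Of 5 astrocyte markers, 4, 3, 2 and 3 had such a peak in the same order of libraries, of 5 oligodendrocyte markers 2, 1, 0 and 1, and of 4 precursor markers 3, 2, 0 and 1. For 4 microglial and 3 endothelial markers the count was 0 in every library. For neurons, astrocytes and both oligodendrocyte stages, each AAV-Cre count was thus at or below each control count, and their part in the results was not tested.

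A few control-only regions lay at a start site inside their host gene. Promoter windows at such starts are shown, since no other reference sequence was at hand. The printed windows overlap their regions but also reach beyond them. The RefSeq promoter table (GRCm38.p6, the assembly that mm10 names) gave start sites for the hosts of 2698 control-only and 2928 shared regions. In 49 of the 2698 (1.82%, 95% Wilson interval 1.38 to 2.39) the summits of both control peaks fell in a 300-base promoter window of the host. Among shared regions the share was 16.8%, and after shared regions were weighted to the same strength of control peak it was 4.74%. The 4 windows below belong to the strongest such regions among hosts that were on a gene list used here or held at least 5 control-only regions, a choice made after the values were seen. Each is the 250 bases upstream of the start, 5′ to 3′, and capitals mark any of 5 motifs on either strand, here TATAAA in the Pcdh15 window and, read on the other strand as ATTGG, the CCAAT box in those of Cacnb3 and Pcdh15.
Hdac9, chr12:34528890-34529139, minus strand: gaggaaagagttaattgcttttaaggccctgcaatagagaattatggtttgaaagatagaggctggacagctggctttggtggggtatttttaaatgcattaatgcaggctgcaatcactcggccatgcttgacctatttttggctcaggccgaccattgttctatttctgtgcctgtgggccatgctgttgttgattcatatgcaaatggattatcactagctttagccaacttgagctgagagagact
Cacnb3, chr15:98632078-98632327, plus strand: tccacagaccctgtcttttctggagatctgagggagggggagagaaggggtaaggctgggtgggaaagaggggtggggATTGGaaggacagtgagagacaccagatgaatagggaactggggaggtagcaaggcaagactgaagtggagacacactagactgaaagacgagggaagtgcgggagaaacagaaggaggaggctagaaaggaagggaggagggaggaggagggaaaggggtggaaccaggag
Esr1, chr10:4709908-4710157, plus strand: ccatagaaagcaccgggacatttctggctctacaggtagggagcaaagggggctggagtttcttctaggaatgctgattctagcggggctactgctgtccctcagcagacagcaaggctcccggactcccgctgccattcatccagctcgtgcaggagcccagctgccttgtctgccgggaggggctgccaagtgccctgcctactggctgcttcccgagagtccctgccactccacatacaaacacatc
Pcdh15, chr10:73821617-73821866, plus strand: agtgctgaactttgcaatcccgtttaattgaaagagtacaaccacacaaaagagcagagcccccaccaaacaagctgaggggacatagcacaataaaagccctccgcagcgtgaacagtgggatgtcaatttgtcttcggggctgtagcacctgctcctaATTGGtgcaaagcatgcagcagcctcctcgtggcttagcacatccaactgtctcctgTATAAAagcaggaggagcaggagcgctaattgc

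The regions at these internal starts had modest peaks. At Hdac9, which encodes a class IIa histone deacetylase, the fold enrichment was 7.03 in AAV-GFP replicate 1 and 7.15 in AAV-GFP replicate 2, and the window held 2 CpG dinucleotides. At Cacnb3, a calcium channel beta subunit, the folds were 4.60 and 5.21, with 2 CpG. The marked motif in the Cacnb3 window begins before the region itself, which starts at chr15:98632160. At Esr1, the oestrogen receptor alpha gene, they were 6.52 and 7.85, with 7 CpG, and this was the one intragenic region of Esr1 that both controls held. At Pcdh15, a protocadherin known from the tip links of hair cells, they were 5.96 and 4.32, with 6 CpG. No AAV-Cre list had a peak in any of the 4 regions. Hdac9 held 12 control-held intragenic regions, of which 7 were control-only and 1 shared, and Pcdh15 held 6, of which 4 were control-only and 0 shared.

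Internal starts of control-only regions held fewer CpG than those of shared regions, in a comparison that was not made at equal strength. The median number of CpG in the 250 bases was 10 (quartiles 5 and 18) over the 49 windows, 17 (10 and 23) over 494 windows at shared regions, and 10 (3 and 19) over 21263 windows of protein-coding genes. The GC-box GGGCGG, read on both strands as were all motifs, was in 46.9% of the 49 windows, 58.5% of the 494 and 42.6% of all. CCAAT was in 38.8%, 44.7% and 35.4%, and TATAAA in 2.04% (the Pcdh15 window alone), 4.25% and 11.6%. TAATTA, a core bound by many homeodomain proteins, was in 6.12% (3 windows), 1.82% and 4.31%. TGACGTCA, the cyclic AMP response element, was in 0 of the 49 windows, which allows a share of up to 6.12%, in 3.64% of the 494 and in 1.92% of all. The motifs do not overlap one another in the printed windows, and a match describes letters and not a bound site.

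Control-only intragenic regions were weak peaks in the controls. The value given for each peak is the fold enrichment, the authors' own ratio of signal to background. In AAV-GFP replicate 1 the control-only regions ran from 2.34 to 26.8 with a median of 5.47, and in AAV-GFP replicate 2 from 2.41 to 17.2 with a median of 5.08. Shared intragenic regions had medians of 7.70 and 7.04 in the same libraries and 6.11 and 6.32 in AAV-Cre replicates 1 and 2. The ranges overlapped widely. Strength was therefore ranked within each list by −log10 p, and a region was placed by its weaker control peak, where 0 is the strongest percentile of the list and 100 the weakest. The median percentile was 73.8 for control-only and 33.9 for shared regions.

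The control-only share rose with every step down in strength. It was 0.826% in the strongest decile of the 9685 regions (8 of 969), 34.7% in the fifth (338 of 973) and 68.6% in the weakest (665 of 969). Regions with a peak in 1 AAV-Cre library made up 35 of the strongest decile and 207 of the weakest. Where a comparison below is said to be at equal strength, each decile of shared regions was weighted to its number of control-only regions. Folds in single genes and peaks at gene ends are given without weighting.

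**Figure D1:**
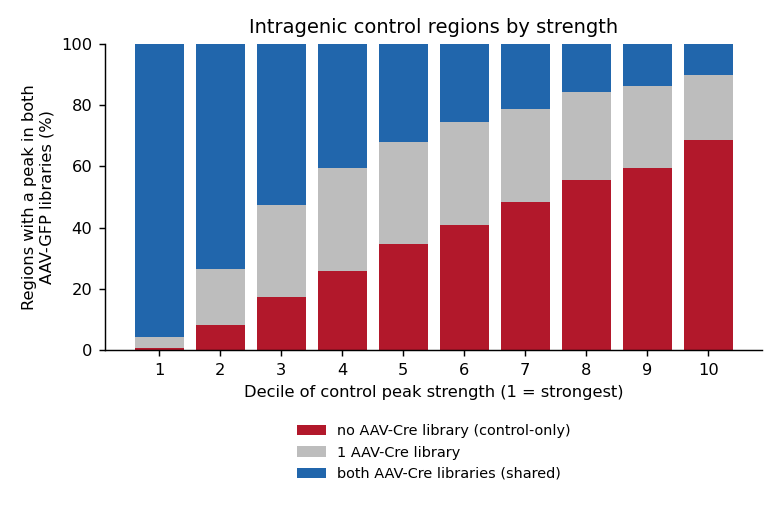
Bars show, for each decile of control peak strength (x axis, 1 is the strongest), the percentage of the 9685 control-held intragenic regions with a peak in neither, 1 or both AAV-Cre libraries. The control-only part grows from 0.826% to 68.6%, and the part shared by all 4 libraries shrinks from 926 to 97 regions.

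The 8 strongest members lay in 8 genes. Efl1, a GTPase gene of ribosome maturation, held the strongest, with its weaker peak at percentile 2.29. Next came a region of 341 bp in Scn9a, the sodium channel Nav1.7 (chr2:66580006-66580346, 54.8 kb from a gene end), with folds of 11.8 in AAV-GFP replicate 1 and 13.0 in AAV-GFP replicate 2. In Arhgap21, a GTPase-activating protein gene (chr2:20898801-20898987), the folds were 8.10 and 7.53. In Borcs5, a subunit of the BORC complex that positions lysosomes (chr6:134659452-134659666), they were 15.9 and 12.0. Cabin1, an inhibitor of calcineurin, had 12.3 and 10.7, and C7, a complement component, 15.4 and 11.4. Nek4, a kinase gene, had 9.63 and 12.0, and Dgkg, a diacylglycerol kinase gene, 10.3 and 9.90. All of these folds were above the control medians of the members. Otp itself held 1 member, at percentile 68.7, with folds of 4.89 and 5.60. Whether this region lies in the loxP-flanked DNA that Cre cuts out was not tested. A second intragenic region of Otp was listed in AAV-Cre replicate 1 only (fold 4.31), and at the ends of the gene every library except AAV-Cre replicate 1 listed a peak.

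Position within the gene differed between control-only and shared regions. Host length was taken for each region, so that a gene counts once for every region it holds. Its median was 154 kb over control-only regions (quartiles 64.6 and 356 kb). It was 101 kb over shared regions and 124 kb over shared regions of equal strength. The median distance to the nearest gene end was 30.5 kb against 17.8 kb, and 25 kb at equal strength. Where strand was known, 8.52% of 2698 control-only regions (95% Wilson interval 7.53 to 9.64) lay in the first 10% of the host, against 13.9% of 2928 shared regions and 11.0% at equal strength. The first 50% of the host held 47.9% of control-only regions and 49.1% of shared regions at equal strength, a value inside the interval of 46.0 to 49.8 around the first. Wilson intervals here cover counting error only, and regions in 1 gene share their source.

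The control-only share rose with host length beyond what strength gave. In hosts of up to 20 kb, 189 of 786 regions were control-only (24.0%), where their strength deciles gave 30.2%. In hosts of 100 to 200 kb the share was 37.2% and strength gave 36.4%. In hosts over 800 kb it was 48.1% (293 of 609), where strength gave 40.1%. Distance from a gene end ran the same way, from 24.1% at 1 to 2 kb (strength gave 30.4%) to 47.8% beyond 200 kb (strength gave 39.8%). Host length and distance go together, and their parts were not separated.

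**Figure D2:**
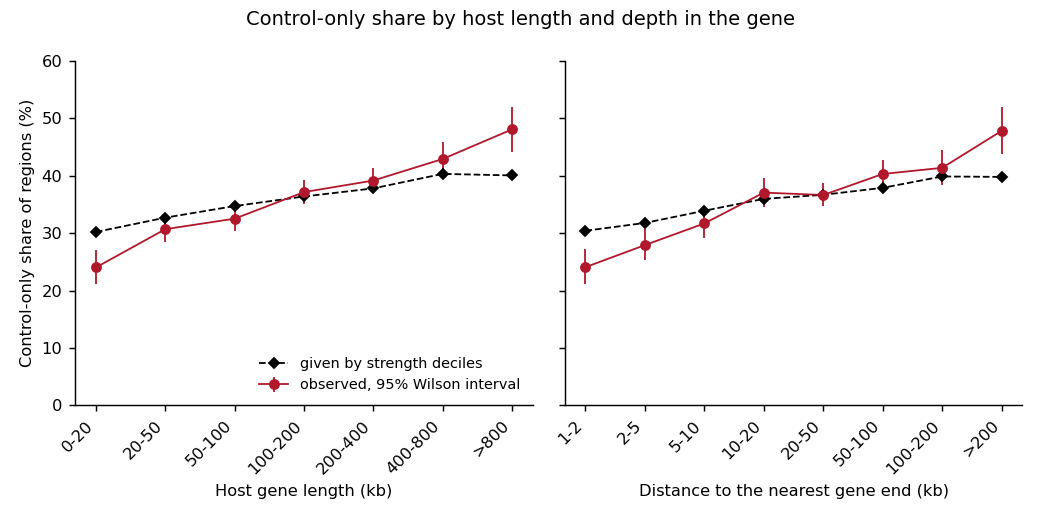
Points show the percentage of control-held intragenic regions that were control-only, by host gene length (left, kb) and by distance to the nearest gene end (right, kb), with 95% Wilson intervals. Diamonds show the percentage that the strength deciles of the same regions give. The observed line starts below the diamonds, at 24.0% against 30.2% for the shortest hosts, and ends above them, at 48.1% against 40.1% for the longest.

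Control peaks of members were narrower than those of shared regions of equal strength, and also narrower than those of all shared regions (386 and 389 bp in AAV-GFP replicates 1 and 2). The peak in AAV-GFP replicate 1 had a median width of 219 bp in control-only and 311 bp in shared regions of equal strength, and that in AAV-GFP replicate 2 220 bp and 282 bp. Strength was matched on the weaker control peak only. A wider peak meets an AAV-Cre peak more easily, so width and the rule that chose the members are not independent. The summits of the 2 control peaks lay a median of 51 bp apart (quartiles 18 and 96), against 43 bp in all shared regions and 63 bp in shared regions of equal strength, so that the direction turned with the weighting. The nearest peak of either AAV-Cre library was a median of 15.7 kb away, and for 263 members (7.55%) it was within 1 kb. The authors' deposited control group list, called on a pool and named as overlap peaks, held a peak in 3466 members, with a median fold of 6.03. Their AAV-Cre group list held a peak in 6 members, although neither AAV-Cre library list did. Members were chosen by peaks of the same libraries, so these counts are no separate check.

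The 1 kb limit cut through a continuum. Just inside it lay regions in Gpm6a (1005 bp from a gene end, folds of 10.7 and 3.70), Bcl9 (1005 bp, 4.59 and 6.10) and Fzd1 (1013 bp, 5.20 and 4.00). Just outside were regions in 0610010F05Rik (996 bp, 6.09 and 4.40), Slc22a29 (993 bp, 7.92 and 6.27) and Lhfpl4 (991 bp, 4.38 and 4.26).

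Members were spread over 2250 host genes, of which 1562 held 1 region and 688 held several, meaning at least 2. The 688 held 1944 of the 3483 members (55.8%), and 70 genes held 5 or more. Hosts with several had a median length of 227 kb and hosts with 1 of 73.2 kb. Genes with a control-held intragenic region but no control-only region had a median of 44.8 kb. Over the 2250 hosts, which share the same 4 libraries, the number of members correlated with gene length with a Spearman coefficient of 0.48. Shared regions were found in 416 of the 688 hosts with several, and 272 had none. A region held by both AAV-Cre libraries and neither control lay inside 92 of the 688. A total of 35 members lay in more than 1 gene and count for each.

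The host genes with most members were long. Auts2, a gene linked to autism whose protein acts with Polycomb complexes, held 13. Asic2, an acid-sensing ion channel, Cdh13, a GPI-anchored cadherin, Lsamp, an adhesion protein of the IgLON family, and Dpp6, an auxiliary subunit of Kv4 potassium channels, held 10 each. Camta1, a calmodulin-binding transcription activator, Dlg2, the postsynaptic scaffold PSD-93, Nrxn3, a presynaptic neurexin, Ntm, another IgLON protein, and Tenm4, a teneurin, held 9 each. Syt1, the calcium sensor of synaptic vesicle fusion, Arhgap26, a GTPase-activating protein, Csmd1, a transmembrane complement regulator, Klhl29 and Prkce, a protein kinase C, held 8 each. In all, 16 genes held 8 or more, and the first 15, with ties ordered by summed strength, leave out Prkce. Of the 15, 10 were on a list used here. With lists of equal length, 6 of the 15 were still among the first 15, and without AAV-GFP replicate 1 or AAV-Cre replicate 2 it was 10, so the order of hosts depends on the lists.

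These hosts differed in how many of their control regions the AAV-Cre libraries still held. In Syt1, 8 of 10 intragenic regions with a peak in both controls were control-only and 2 were shared, where the strength deciles gave 3.65 control-only regions. In Cdh13 it was 10 of 14, where strength gave 6.06, and in Csmd1 8 of 11 (5.27). In Camta1 it was 9 of 25, with 12 shared, where strength gave 9.17, and in Asic2 10 of 27, with 10 shared (9.58). Ntm had 9 of 21, where strength gave 9.12. Auts2 had 13 of 23 (10.5), Lsamp and Dpp6 10 of 16 (6.40 and 6.92), and Dlg2 9 of 16 (6.01). Long genes with many members thus included some at and some above the number that strength gave. The genes were chosen by their number of members, which favours values above it.

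**Figure D3:**
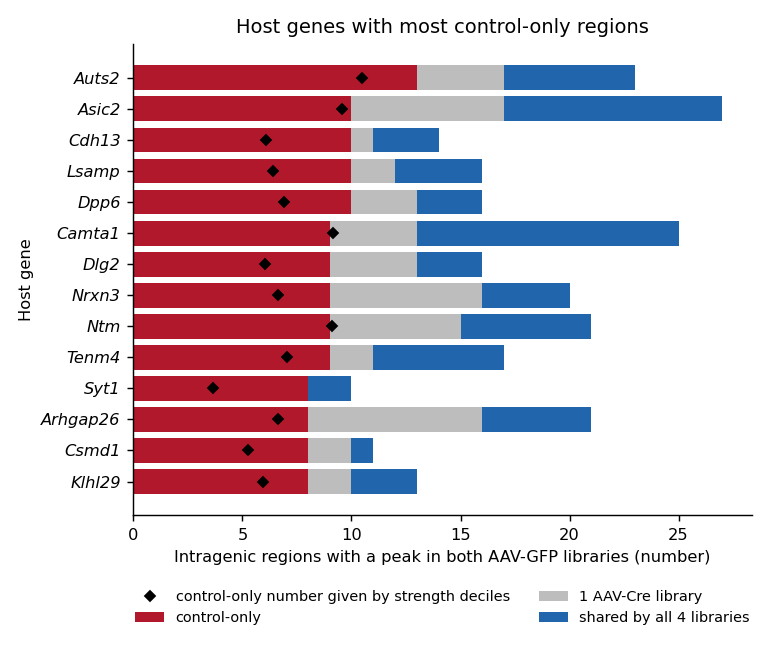
Bars show, for 14 of the 15 host genes with most members, the number of control-held intragenic regions, divided by whether neither, 1 or both AAV-Cre libraries had a peak. Diamonds mark the control-only number given by strength deciles: in Syt1 8 regions stand against 3.65, while in Camta1 9 stand against 9.17.

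In Auts2 (chromosome 5, 131437333 to 132543220) the members and the shared regions were interleaved. The 13 members had folds of 3.02 to 8.39 in AAV-GFP replicate 1 (median 4.96) and of 3.54 to 7.93 in AAV-GFP replicate 2 (median 4.60). The 6 shared regions had median folds of 6.60 and 6.53 in the controls and 5.99 and 5.55 in AAV-Cre replicates 1 and 2. Members were thus lower than shared regions in both controls, with overlap. Among them, chr5:131673281-131673580 had 6.23 and 6.64, while the shared region chr5:131643217-131643646 had control folds of 6.14 and 6.73 and AAV-Cre folds of 5.72 and 4.50. At nearly equal control values, the first was thus listed in no AAV-Cre library and the second in both.

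In Syt1 the members overlapped the 2 shared regions in strength. Their median folds were 5.59 and 6.10 in AAV-GFP replicates 1 and 2, against 7.36 and 7.05 for the shared regions. At chr10:108872426-108872676, 138 kb from a gene end, the folds were 6.40 in AAV-GFP replicate 1 and 8.37 in AAV-GFP replicate 2. At chr10:108559272-108559936 they were 7.11 and 6.35, and at chr10:108568187-108568461 5.40 and 8.07. The shared region chr10:108679587-108680257 had control folds of 7.13 and 6.46 and AAV-Cre folds of 4.98 and 3.83. In Cdh13 the members had median folds of 6.40 and 5.16, below the 7.81 and 8.24 of its 3 shared regions. Its strongest member, chr8:119196597-119196947, had 9.37 and 9.51, while the shared regions had 6.70 and 5.62, 7.81 and 9.91, and 10.9 and 8.24. In Ntm the strongest member had 9.53 and 9.90.

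**Figure D4:**
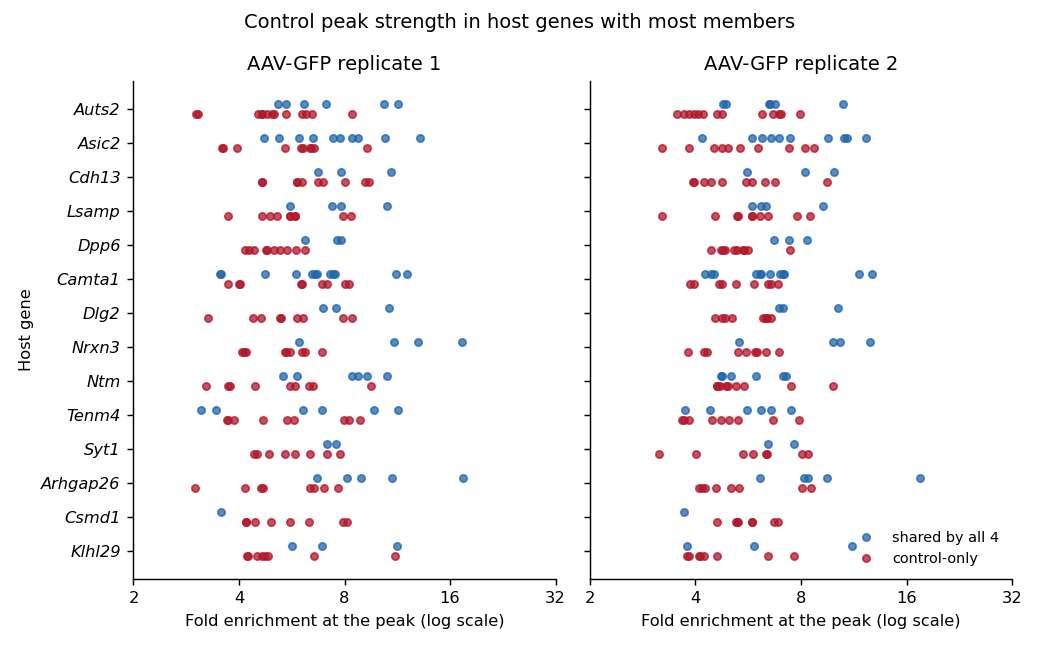
Points show the fold enrichment (log scale) of control-only and shared intragenic regions in 14 of the 15 host genes with most members, in AAV-GFP replicate 1 (left) and AAV-GFP replicate 2 (right). Control-only and shared regions overlap in most genes. In Nrxn3 the medians of shared regions (12.0 and 10.1) exceed those of members (5.46 and 5.56).

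Among the 277 genes with at least 6 intragenic regions held by both controls, the control-only share had a median of 37.5% (quartiles 25 and 50), and strength gave a median of 38.7%. All such regions were control-only in 2 of these genes, and none in 11. Pard3, a scaffold of cell polarity, had 7 of 7 (strength gave 3.00), and Slc24a3, a sodium, calcium and potassium exchanger, 6 of 6 (3.11). Cux1, a homeodomain transcription factor gene, had 6 of 7 (3.45), Tenm3, a teneurin, 6 of 7 (2.84), and Dtnb, beta-dystrobrevin, 5 of 6 (2.76). At the other end, Farp1, a guanine nucleotide exchange factor gene of dendrites, had 0 of 9 (strength gave 3.18), with 4 shared. Ksr2, a Ras pathway scaffold with a known role in energy balance, had 0 of 8 (2.52), with 5 shared. Chd9, a chromatin remodeller, and Kif5c, a neuronal kinesin heavy chain, had 0 of 7 each (1.80 and 2.65). Atp10a, a phospholipid flippase, had 0 of 6 (1.48). These genes are the extremes of 277.

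Gene ends of host genes lay outside the regions that were chosen. Of the 688 hosts with several members, 371 (53.9%, 95% Wilson interval 50.2 to 57.6) had a peak within 1 kb of a gene end in all 4 libraries, 37 (5.38%, 3.93 to 7.32) in both controls and neither AAV-Cre library, and 132 (19.2%) in no library. Of 1562 hosts with 1 member, the counts were 765 (49.0%), 55 (3.52%, 2.72 to 4.55) and 402. Of 1714 genes with shared but no control-only intragenic regions, they were 672 (39.2%), 64 (3.73%, 2.93 to 4.74) and 682. A gene end here is an outermost end of the gene, so a promoter at an internal start counts as intragenic. Where start sites were known, 16.8% of shared and 1.82% of control-only regions lay at internal starts. Neither this difference nor host length was matched between these groups of genes. Among the hosts named above, Dtnb had gene-end peaks in the controls alone, Auts2, Pard3, Slc24a3, Syt1, Dlg2 and Nrxn3 in all 4 libraries, and Cdh13 in none.

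Functions of the hosts were followed with 19 gene lists that hold 599 genes, some of them on more than 1 list. The lists held 147 of the 688 hosts with several members (21.4%) and 372 of the 4717 genes with a control-held intragenic region (7.89%). They were chosen with earlier results of these data known, so nothing is read from this difference. Of the 19 lists, 15 had a control-only share above the share given by strength. The strength share takes no account of host length. Over all hosts longer than 800 kb, of any function, the share was 48.1% where strength gave 40.1%. The part of host length in the gaps of the lists was not tested. With strength deciles, the Wilson interval of the list share excluded the strength share in 2 lists only. These were synaptic and neuronal adhesion (39.74 to 51.10, strength 39.60) and microglia (38.6 to 79.7, strength 34.3). For the other lists the gap to strength, in either direction, lay within counting error. With 50 strength classes the adhesion interval included the strength share (39.91%). The interval of the RNA-binding list, 41.22 to 62.24, then excluded its strength share (40.96%). Which lists stood out thus depended on the number of classes. Of the 11 microglial members, 3 also lay in Insyn2b. Of the 63 genes for synaptic and neuronal adhesion, 39 held a member and 28 held several. They had 132 control-only among 291 control-held regions (45.4%), where strength gave 39.6% and all intragenic regions had 36%. The median gene length of this list was 371 kb. Besides Lsamp, Nrxn3, Ntm and Tenm4, the list held counter-examples. Ntng1, a netrin-G, had 2 shared and 0 control-only regions, and so did Ptprs, a receptor tyrosine phosphatase. Of 33 cadherin and catenin genes, 15 held a member (43 of 102 regions, 42.2%, strength 39.0%). Cdh13 led with 10, Cdh4 had 6 and Ctnna2, an alpha-catenin, 5, while Cdh18 had 4 shared and 0 control-only regions.

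Axon guidance genes held 44 control-only of 94 control-held regions (46.8%, strength 39.1%), in 23 of 41 genes. Slit3, a repulsive ligand, had 4. Epha4, an ephrin receptor, had 3 of 3, with folds of 6.06 and 6.35, 4.73 and 4.46, and 4.60 and 6.88 in AAV-GFP replicates 1 and 2. The gene ends of Epha4 had peaks in both controls and in neither AAV-Cre library. Nrp2, a semaphorin co-receptor, and Sema5a, a semaphorin, had 3 each.

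Among genes of neuronal excitability and synapses, voltage-gated channel genes had 68 of 160 regions control-only (42.5%, strength 36.9%), in 31 of 49 genes, 19 of them with several. Dpp6 led with 10, and Kcnh1, a potassium channel, Cacnb2, a calcium channel beta subunit, and Cacna2d3, an alpha2delta subunit, had 4 each. Cacna1d, a calcium channel pore subunit, had 2 shared regions and 0 members. Glutamate receptor genes had 30 of 72 (41.7%, strength 42.7%), with 5 in Grid1, a delta receptor, and 3 of 3 in Grik1, a kainate receptor, whose strongest member had folds of 8.58 and 6.96. GABA and glycine receptor genes had 14 of 35 (40.0%, strength 36.1%), with 5 in Gabrb1. Scaffold genes had 59 of 143 (41.3%, strength 37.3%). Dlg2 had 9 and Dlgap1 7, while Shank3 and Dlg4 had 2 shared regions and 0 members each.

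Genes of RNA-binding proteins had the highest share among lists with over 80 regions, 43 of 83 (51.8%, strength 41.2%), in 12 of 21 genes. The Wilson interval of this share, 41.22 to 62.24, included the 41.24% that strength deciles gave, but not the 40.96% given by 50 strength classes. Msi2, a Musashi protein, held 7 members with folds of 4.06 to 5.71 in AAV-GFP replicate 1 and 4.31 to 7.56 in AAV-GFP replicate 2. Celf4 also held 7, the splicing regulator Rbfox1 6 and Rbfox3, the neuronal nuclear antigen NeuN, 5. Elavl2 had 2 shared regions and 0 members. Signalling enzyme genes had 55 of 164 (33.5%), below the 37.6% that strength gave. They included Prkce with 8, and Camta1, which is a transcription activator and no enzyme, with 9.

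Transcription factor genes of the PVH and hypothalamus held few members. Of 40 genes, 11 held a member and 3 held several (18 of 43 regions, 41.9%, strength 36.0%). Rora, a nuclear receptor, had 4, of which chr9:68820432-68820742 had folds of 7.46 and 8.99. Sox5 had 3, and Esr1 had 1. Of 44 broad neural regulators, 31 held a member (68 of 149, 45.6%, strength 39.4%), with 13 in Auts2, 7 in Nfia, a nuclear factor I gene, and 4 of 4 in Glis3, a zinc-finger gene whose members had folds of 6.52 to 7.46 in AAV-GFP replicate 1 and 5.28 to 6.69 in AAV-GFP replicate 2. Both controls and neither AAV-Cre library had peaks at the gene ends of Glis3.

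Energy balance and neuropeptide genes are short and gave few regions. Of 26 melanocortin and energy balance genes, 5 held a member (7 of 20 regions, 35.0%, strength 33.4%). Mrap2, an accessory protein of melanocortin receptors, had 2 of 2. That at chr9:87167466-87167792 had folds of 7.70 and 4.69, and that at chr9:87145321-87145523 had 3.92 and 4.27, while the gene ends of Mrap2 had peaks in all 4 libraries. Cpe, the prohormone-processing carboxypeptidase E, had 2, with folds of 9.51 and 6.50 at chr8:64634484-64634737. Ntrk2, the BDNF receptor, had 1 member, 6 shared regions and 4 with 1 AAV-Cre library. Of 27 neuropeptide and receptor genes, 5 held 1 member each (5 of 9 regions, strength 51.6%). Among them Vgf had folds of 3.19 and 4.29, Crhr1, a receptor for corticotropin-releasing hormone, 4.32 and 7.55, and Crhr2 4.60 and 4.97.

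Lists of other cell types had few regions. Oligodendrocyte precursor genes had 21 of 39 regions control-only (53.8%, strength 40.7%), led by Tnr, tenascin-R, with 5 and Pcdh15 with 4. Oligodendrocyte genes had 25 of 56 (44.6%, strength 38.4%) and astrocyte genes 9 of 28 (32.1%, strength 40.2%). Microglial genes had 11 of 18 (61.1%, strength 34.3%), in 6 of 24 genes. Dock2, a guanine nucleotide exchange factor gene of immune cells, had 4, of which 3 also lay in Insyn2b. Apbb1ip had 2 of 2, of which chr2:22864725-22864938 had folds of 14.9 and 8.46, and Fli1, an ETS factor, had 1, with 9.05 and 8.85. As given above, the 4 defining microglial markers were without peaks at their ends, and the part of cell composition in these counts was not tested. Endothelial and mural genes had 5 of 9 (strength 40.1%). Housekeeping genes had 0 of 5, all 5 of them shared and in 3 genes, where strength gave 17.1%, or 0.855 regions.

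**Figure D5:**
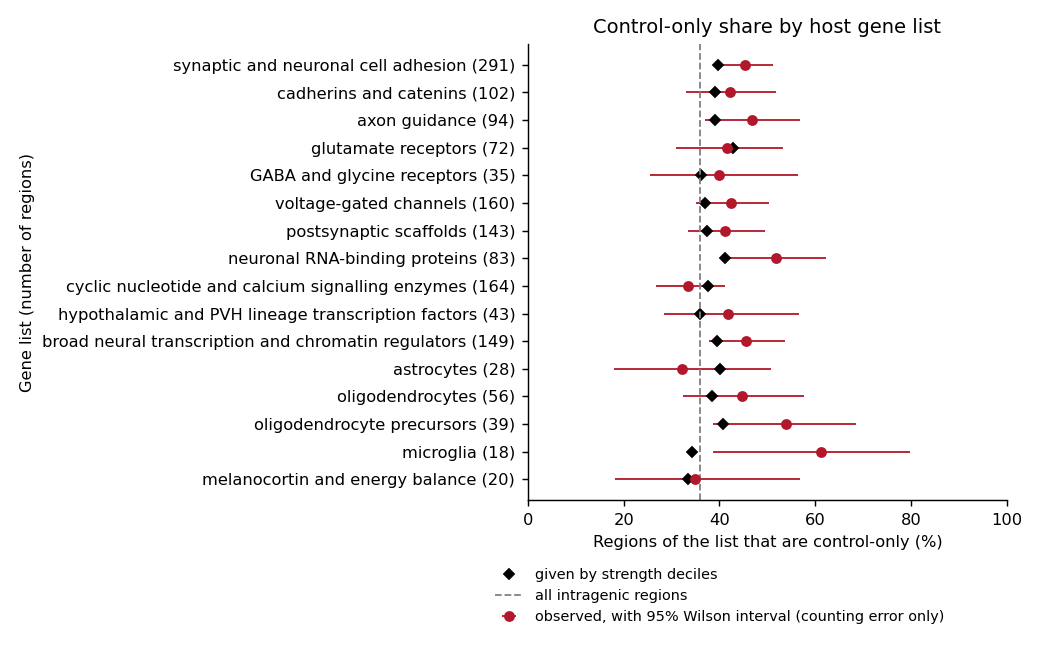
Points show the percentage of control-held intragenic regions that were control-only for the 16 gene lists with at least 15 such regions (number in brackets), with 95% Wilson intervals. Diamonds show what the strength deciles of the same regions give, and the dashed line all intragenic regions (36%). Signalling enzymes, glutamate receptors and astrocytes lie to the left of theirs.

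Neighbouring regions were compared within each gene, as a description. After a control-only region, the next control-held region of the same host was control-only in 796 of 1939 cases (41.1%, 95% Wilson interval 38.9 to 43.3), where strength gave 38.4%. After a shared region it was control-only in 614 of 1727 (35.6%, 33.3 to 37.8), where strength gave 36.0%. Adjacent members lay a median of 27.8 kb apart (quartiles 12.1 and 58.8 kb).

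The share of all peaks that lay inside genes differed between the lists as deposited. It was 41.1% and 37.3% in AAV-GFP replicates 1 and 2 and 33.3% and 35.3% in AAV-Cre replicates 1 and 2. Both controls were above both AAV-Cre libraries, with means of 39.2% ± 2.66 (SD, n = 2) and 34.3% ± 1.44 (SD, n = 2). The difference of 4.87 percentage points had a 2-sided exact permutation p of 0.333, the smallest possible. When the lists were cut to an equal length of 23384 peaks, the strongest of each, the direction turned, to 31.0% and 32.4% in controls and 33.3% and 33.6% after AAV-Cre. With lists of that length 842 intragenic regions were control-only, and 776 of the 3483 members were still control-only.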

How the data were processed

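ATAC-seq peaks were analysed in 2 AAV-GFP and 2 AAV-Cre libraries of mouse PVH. The submitters' processing notes name mm10 and the tools Bowtie2, FastQC, MACS2 and Trim Galore. For versions, read filters, the transposase shift and thresholds: not given in the sources used here. Deposited by the authors were 1 peak list for each library and 1 for each pooled group, with positions in bp. A deposited score column follows the −log10 q and was not used. The deposited fold is a ratio of signal to background. The p-value and q-value of a peak were deposited by the authors as −log10 p and −log10 q. These were used to describe, rank or filter peaks within a list. No read counts were used, so depth is unknown, and list length may depend on it.

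Regions, hosts and strength deciles were computed as described above with Python 3.11.15, pandas 2.3.3, numpy 2.4.6 and scipy 1.17.1, on 21900 protein-coding genes of a RefSeq table (GRCm38.p6), without exons. The number given by strength adds the control-only share of each region's decile. Merging and host assignment were checked on simulated peaks. The members and gene lists were chosen with earlier results of these data known. Named by rule were the 15 hosts with most members, the 8 strongest regions, up to 4 members and 2 counter-examples per list (not all are printed, and 2 genes are not reported here), the 5 hosts at each extreme of share, Otp and the regions at the 1 kb limit. Regions of single hosts were picked from these after their values were seen. No test across regions was made.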

Additional observations from a re-analysis of the deposited data

How the results depend on the processing

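The counts moved with list length, and the cause was not tested. Reduced to the shortest list, the libraries gave 842 control-only regions, 18% of control-held regions and 83 hosts with several, and the difference in intragenic share reversed to -1.76 points. At a −log10 q of at least 5 the values were 2281, 38.8% and 394, where 1258 of the members remained. The share was 38.1% beyond 5 kb from gene ends. Without 1 library the values ran from 4402 to 14739 regions (highest without AAV-GFP replicate 2, and 5612 without AAV-GFP replicate 1), 45.3% to 64.4% and 889 to 2776 hosts (1152 without AAV-GFP replicate 1 and 1069 without AAV-Cre replicate 2), since fewer libraries make a region control-only more easily. A planned overlap rule changed nothing by construction, and a stricter one, added after the data were seen (a peak covers 50% of the region), gave 45.98%. Median host length, taken over regions, was greater for control-only regions by 29786 bp at equal strength and by 53340 bp unweighted. It was greater by 13815 bp at the shortest length, 28064 bp with 50 strength classes (added) and 18638 to 29670.5 bp without a library. Distance to a gene end was greater by 5511 bp, and by 12732, 6423.5, 5243 and 4567 to 5690 bp in the same order. Region width differed by -167 bp, and by -230, -170, -166 and -237 to -99 bp. Regions joined over 4 libraries are wider by construction. The share at internal starts stayed below that of shared regions at equal strength in all settings run, at 4.20% against 11.2% in the shortest lists. With the replicate number as a block (added), the intragenic share was higher in the control by 7.78 and 1.97 points in replicates 1 and 2, with the same mean of 4.87 and an exact sign-flip p of 0.5, the smallest possible. The labels state no pairing, and the counts of regions come from no test that could take a block.

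In lists of the shortest length each of the 15 hosts held 1 to 4 members, and 6 stayed among the first 15 (9 at a −log10 q of at least 5). Adhesion, axon guidance, scaffold, RNA-binding, both transcription factor, oligodendrocyte, precursor and microglial lists stayed above the share given by strength in every setting run. The settings reuse the same 4 libraries, and each run without 1 library kept all 3483 members, so they are not independent. None of the settings matched host length. In the shortest lists the counts were small, with 5 of 10 microglial and 7 of 17 precursor regions control-only. For PVH and hypothalamic transcription factors it was 5 of 23 (21.7%, strength 21.6%). In the shortest lists, those for GABA receptors, cadherins, neuropeptides and energy balance fell below the share given by strength, and glutamate receptors rose above it. Each of these lists crossed it in another setting as well. Voltage-gated channels fell below it without AAV-GFP replicate 2 (66.0% against 67.0%), and endothelial genes at a −log10 q of at least 5. Astrocyte and signalling enzyme lists rose above it without AAV-Cre replicate 2, and housekeeping genes at that q.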

Other observations

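Control-only shares differed between chromosomes, from 29.7% on chromosome 11 (207 of 697 regions, strength 34.6%) to 42.2% on chromosome 1 (266 of 630, strength 37.6%). The 393 regions held by both AAV-Cre libraries and no control lay in 364 genes, and 175 of these genes also hosted a control-only region.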
